A study of Mus musculus with 3 samples.

Results

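The transcription factors described here are 10 genes that set B cell identity or drive the turn from B cell to antibody-secreting plasma cell: Pax5, Ebf1, Spib, Spi1, Ikzf1, Irf4, Irf8, Pou2af1, Bcl6 and Prdm1. All probe sets annotated to these symbols alone were taken, with Sfpi1 read as the older symbol of Spi1, which gave 13 probe sets of the 12588 on the array that are not controls. The 10 genes stand among 8220 genes that the platform annotation names from a probe set with 1 symbol. They were measured in LNC, a malignant B-1 cell line whose origin is a lymph node of an NZB (New Zealand Black) mouse aged 1 year. One Affymetrix array (first version of the Murine Genome U74 set, A array) was made per group. LNC cells were given 20 µM of antisense oligonucleotide to IL-10, 20 µM of a scrambled form of it to control for unspecific effects, or nothing. RNA was collected at 24 h. All 3 groups are the same cell line, which the labels tie to a single mouse, and the sources used here do not say whether cultures were pooled.

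As background, Pax5 and Ebf1 switch on the B cell programme together, and Pax5 also holds alternative programmes off. The ETS factors Spi1 (PU.1) and Spib and the coactivator Pou2af1 (OBF-1) act on immunoglobulin and B cell receptor genes, and Ikzf1 (Ikaros) is a zinc finger factor of lymphoid cells. Irf4 and Irf8 bind composite sites with ETS factors. At high dose Irf4 favours the plasma cell fate, in which Prdm1 (Blimp-1) represses Pax5, Spib, Bcl6 and other B cell genes, whereas Bcl6 represses Prdm1 in germinal centre cells. B-1 cells are known for spontaneous antibody secretion and for making IL-10, a cytokine that malignant B-1 cells use for their own growth.

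Intensities are in arbitrary units on a linear scale, with each array scaled to the same trimmed mean. Values at or below 595.9, a floor of 2 robust standard deviations of the values below 0, were set to that floor before log2 was taken, so they carry no order. With 1 array per group no test was possible and no p-value is given. The yardstick of error for a probe set was how far apart its 300 neighbours in mean level were on the scrambled and untreated arrays, as the 95th percentile of absolute log2 differences. An effect of the scrambled oligonucleotide itself would be part of it. Il10, the targeted gene, read 13946 on the array labelled antisense, against 5616 (scrambled) and 5164 (untreated), a direction opposite to loss of its RNA. The name "array labelled antisense" is used for that reason, and every direction below rests on that label. The 3-prime over 5-prime signal of 18S ribosomal RNA was 8.13 on that array, 4.48 (scrambled) and 1.72 (untreated). This ratio for actin and Gapdh lay between 0.920 and 1.01. The part of RNA quality in the results below was not tested. In a bulk culture, a smaller share of cells with a transcript and less transcript per cell cannot be told apart.

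The labelled cell type was checked against markers. Of 7 B cell markers on the array, 6 were above the floor on all 3 arrays and Cd22 was below it on all 3. For comparison, of the 12588 probe sets that are not controls, 6127 were above the floor on some array and 4539 on all 3. Cd79a, a signalling chain of the B cell receptor, read 21473 on the array labelled antisense, against 30469 (scrambled) and 27790 (untreated). Summed over the 7 markers, intensity was 72504, 94287 and 90527 in that order. This sum rests largely on the bright Ms4a1 and Cd79a. On the array labelled antisense, 3 of the 6 markers were lower than both controls and 2, Cd79b and Blnk, were higher. A dimmer Blnk probe set was not, at -0.01 from scrambled. Of all probe sets above the floor on all 3 arrays, 36.4% were lower and 37.5% higher. Of 8 T cell markers, 7 were at or below the floor, among them Cd3e, Cd3d and Cd3g, and the exception was Cd4, at 1266, 2339 and 1349. Summed T cell markers came to 1578, 2946 and 1795. Of 10 macrophage and myeloid markers, 5 were at or below the floor, Lyz2, Itgam and Adgre1 among them, and the list summed to 3885, 4020.2 and 5121. Of the others, Cd14 read 1088, 1563 and 2061, and Cd68 read 1331, 767 and 854. Of 4 erythroid markers, 2 were at or below the floor, and the list summed to 5293, 5112 and 4254. Klf1 read 3060, 3985 and 2626, above the floor on all 3 arrays. Hba-a1 read 2233, 560 and 1628, below the floor on the scrambled array. Of 8 fibroblast and stroma markers, 6 were at or below the floor, and their sum was 2488, 1161 and 1575. All 5 NK cell markers were at or below the floor, with sums of 857, 369 and 598, made wholly of values that carry no order. The counts of myeloid markers (5 of 10) and erythroid markers (2 of 4) at or below the floor lie close to the share over the whole array. They do not set those lists apart from it. The part of other cells in the results was not tested.

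On the array labelled antisense, transcripts of Irf4 stood above both controls, and those of Spib and Ikzf1 were lower, each by more than the yardstick against either control. Prdm1 was higher too, past the yardstick by a narrow margin that was lost with lower and higher floors. Of the 8 factors above the floor on all 3 arrays, Irf4, Spib and Ikzf1 were beyond the yardstick against both controls, 3 of 8, where 5.86% of the 4539 probe sets with such values were. Prdm1 passed the floor on the array labelled antisense alone, which fixed its side, and with it the count is 4 of 9 beside 5.27% of the 6127 probe sets above the floor on some array. Spib and Ikzf1 were known to be lower when the factors were chosen, so these counts describe the group and support nothing further. With scaling to the spike-in controls, given below, neither Spib nor Ikzf1 was beyond the yardstick against both controls. Irf8 was higher too, within the yardstick. Pax5, Ebf1, Spi1 and Pou2af1 differed by less than the yardstick from both controls, and Bcl6 did not exceed the floor on any array. The upstream sequences of Irf4, Prdm1 and Spib are shown because these genes differed in opposite directions on the same array.

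RefSeq (assembly GRCm38.p6) gave promoter windows for 9 of the 10 genes, 13 windows in all, and Spi1 was not matched. The 250 bases before the annotated transcript start are printed 5′ to 3′ on the gene's strand for Irf4 at chr13:30748983-30749232 (plus strand), Prdm1 at chr10:44458749-44458998 (minus strand, inside the annotated span of the gene) and Spib at chr7:44532072-44532321 (minus strand). Capitals mark matches to the motifs searched.
Irf4: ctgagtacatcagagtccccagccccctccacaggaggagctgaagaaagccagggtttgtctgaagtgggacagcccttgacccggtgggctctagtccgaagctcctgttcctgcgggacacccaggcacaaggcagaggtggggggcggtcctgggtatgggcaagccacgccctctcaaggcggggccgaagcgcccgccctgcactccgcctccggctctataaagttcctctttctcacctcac
Prdm1: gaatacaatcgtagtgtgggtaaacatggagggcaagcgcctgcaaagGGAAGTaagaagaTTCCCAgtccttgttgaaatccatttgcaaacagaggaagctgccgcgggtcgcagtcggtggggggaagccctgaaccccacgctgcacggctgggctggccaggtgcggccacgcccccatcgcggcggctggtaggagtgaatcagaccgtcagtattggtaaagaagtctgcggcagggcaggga
Spib: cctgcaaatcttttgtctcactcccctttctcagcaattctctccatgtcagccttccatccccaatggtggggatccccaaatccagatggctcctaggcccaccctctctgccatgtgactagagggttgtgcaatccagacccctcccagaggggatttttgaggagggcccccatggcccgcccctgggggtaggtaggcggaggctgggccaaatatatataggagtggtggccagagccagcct

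Searched on both strands were GGAAGT (an ETS core), GGAA followed 2 bases later by GAAA (an ETS and IRF composite), ATGCAAAT (an octamer, the site of the Pou2af1 partners), GAAA repeated after 2 bases (an IRF repeat), TCCC followed 2 bases later by GGGA (an EBF site) and TGGGAA (an Ikaros core). Among these, only matches to GGAAGT and TGGGAA were in the Prdm1 window, and they did not overlap. GGAAGT was in 19.7% of all 32851 windows of this length and TGGGAA in 21.6%. The Irf4 and Spib windows and both Ikzf1 windows held none of the 6 motifs. The ETS and IRF composite, in 2.3% of all windows, was in 1 Bcl6 window, and the IRF repeat, in 2.98%, was in 1 Ebf1 window. A second Ebf1 window held GGAAGT and TGGGAA, and 1 Irf8 window held TGGGAA. ATGCAAAT, in 1.6% of all windows, and the EBF site, in 0.779%, were in none of the windows of the 9 genes. A match is a description of the letters, and its absence says only that these letters are not in this window.

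Irf4 is a dose-dependent factor of activated B cells and plasma cells. Its probe set (GenBank U20949; gene on chromosome 13, 30749233 to 30766981) read 24443 on the array labelled antisense, against 16268 (scrambled) and 15737 (untreated). The control arrays lay 0.05 apart on the log2 scale, and the array labelled antisense stood above both. The difference was 0.64 in log2 intensity against untreated and 0.59 against scrambled (1.55-fold over untreated), with a yardstick of 0.34. Of all probe sets above the floor on some array, 5.39% were at least as far above both controls.

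Prdm1 encodes the repressor that closes the B cell programme in plasma cells. Its probe set (U08185; chromosome 10, 44437174 to 44528558) read 1298 on the array labelled antisense, while its values of 472 (scrambled) and 587 (untreated) were below the floor. Prdm1 thus passed the floor through the array labelled antisense alone, so it had to be counted as higher there. Against the floor it was at least 2.18-fold higher than either control, a log2 difference of at least 1.12 beside a yardstick of 1.10. The margin over the yardstick is narrow. With a floor of 4 robust standard deviations the difference was 0.12, and with lower floors it was not beyond the yardstick against both controls.

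Irf8, a relative of Irf4 that works with PU.1 in B and myeloid cells, was also highest on the array labelled antisense. Its probe set (M32489; chromosome 8, 120736358 to 120756694) read 1802 there, against 1157 (scrambled) and 967 (untreated). The log2 differences of 0.90 against untreated and 0.64 against scrambled, 1.86-fold and 1.56-fold, lay within the yardstick of 1.23 for so dim a probe set. The control arrays themselves differed by 0.26. Larger folds than those of Irf4 were therefore less well resolved.

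Spib encodes an ETS factor of mature B cells, a close relative of PU.1. Its brighter probe set (U87620; chromosome 7, 44525995 to 44532087) read 8629 on the array labelled antisense, against 16871 (scrambled) and 15336 (untreated). The controls were 0.14 apart and the array labelled antisense lay far below both. The log2 difference was -0.83 against untreated and -0.97 against scrambled, that is 1.78-fold and 1.96-fold lower, where the yardstick was 0.35. As many as 1.88% of probe sets were at least as far below both controls. A dimmer probe set of Spib (AH006793), whose suffix marks probes shared with other transcripts, read 3186, 5178 and 4613 in the same order. It pointed the same way with smaller differences, -0.53 against untreated, within its yardstick of 0.58, and -0.70 against scrambled, beyond it.

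Ikzf1 showed the largest difference from untreated cells among the 8 factors above the floor on all 3 arrays. Its brighter probe set (L03547; chromosome 11, 11684962 to 11772930) read 1580.0 on the array labelled antisense, against 2720 (scrambled) and 3400 (untreated). The difference was -1.11 against untreated and -0.78 against scrambled, or 2.15-fold and 1.72-fold lower, and the yardstick was 0.75. Here the controls were further apart than for Spib, with the scrambled array 0.32 below the untreated one, so the order was untreated, scrambled, labelled antisense. The margin over the yardstick was narrow against scrambled. The other Ikzf1 probe set was below the floor on the 3 arrays and gives no second reading.

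**Figure D1:**
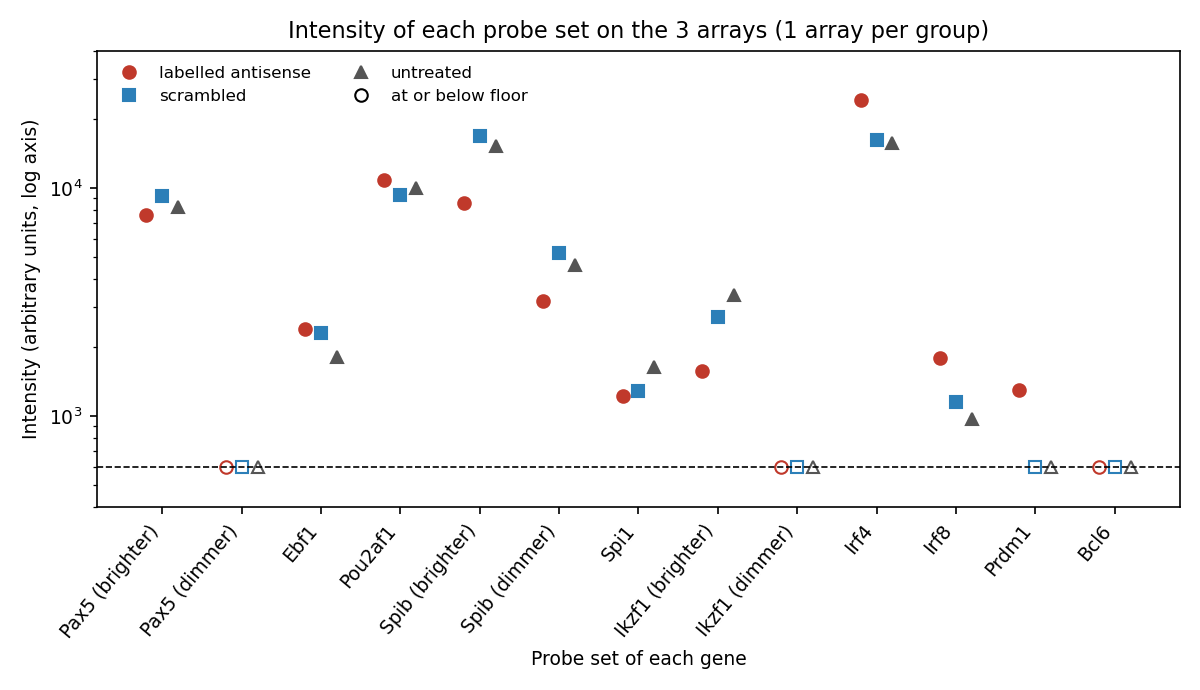
Intensity (log axis, arbitrary units) of the 13 probe sets of the 10 factors, with 1 point per array and the floor of 595.9 as a dashed line. Irf4 and Prdm1 are highest on the array labelled antisense, both readable Spib probe sets and the brighter Ikzf1 probe set are lowest there, and open points are values at or below the floor.

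Pax5, the factor that commits cells to the B lineage, differed little between arrays. Its brighter probe set (U56837; chromosome 4, 44524748 to 44710694) read 7623 on the array labelled antisense, against 9218 (scrambled) and 8239 (untreated). The value on the array labelled antisense was the lowest, by -0.11 against untreated and -0.27 against scrambled, with a yardstick of 0.40. The other Pax5 probe set was below 0 on the 3 arrays.

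Ebf1, which acts upstream of Pax5, read 2409 on the array labelled antisense, against 2308 (scrambled) and 1814 (untreated). Both oligonucleotide arrays were above the untreated one, and they lay 0.06 apart. The differences of 0.41 against untreated and 0.35 between the controls were within the yardstick of 0.77.

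Spi1, which encodes PU.1, read 1222 on the array labelled antisense, against 1285 (scrambled) and 1636 (untreated). It showed the mirror order of Ebf1, with the untreated array highest, by 0.35 over scrambled. Against untreated it differed by -0.42 and against scrambled by -0.07, beside a yardstick of 1.19. A change of Spi1 of the size seen for Spib would have been within that yardstick.

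Pou2af1, the B cell coactivator of octamer-binding factors, read 10822 on the array labelled antisense, against 9341 (scrambled) and 10037 (untreated). The differences of 0.11 and 0.21 were within the yardstick of 0.36. Bcl6, the repressor of germinal centre B cells, had deposited values of -26.8, 135.7 and 393, all below the floor, so no difference is given.

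**Figure D2:**
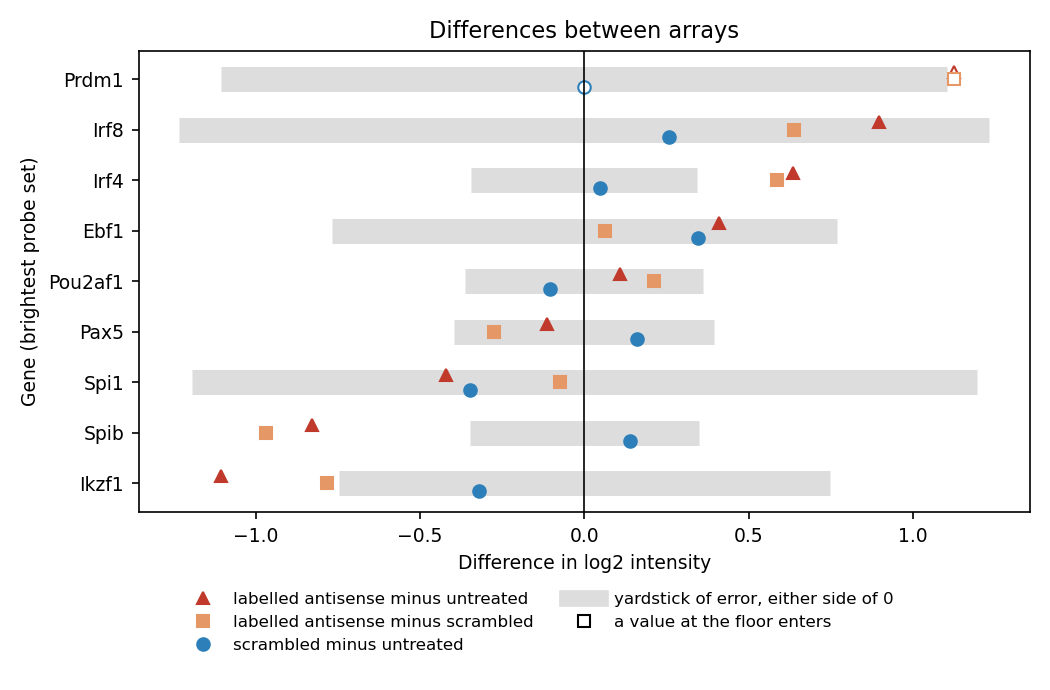
Differences in log2 intensity for the 9 factors above the floor on some array, with the yardstick of error as a grey bar on either side of 0. Both differences of Ikzf1, Spib and Irf4 from the controls lie outside the bar, those of Prdm1 lie at its edge as lower bounds (open symbols), and every scrambled minus untreated difference lies inside it.

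Counted together, the 8 factors above the floor on all 3 arrays split evenly: 4 had their highest value on the array labelled antisense and 4 their lowest, where 37.5% and 36.4% of all such probe sets did. Prdm1, whose side the floor fixed, brings the first count to 5 of 9, beside 37.2% higher and 32% lower among probe sets above the floor on some array. Ikzf1 was the 1 factor of the 8 at least 2-fold apart from untreated, and none of the 8 was so from scrambled, where 4.85% and 6.02% of probe sets above the floor on some array were. Prdm1, as a bound against the floor, adds 1 to each of these counts. None of the 9 was 2-fold apart between the scrambled and untreated arrays, where 3.1% of probe sets were, and none of the 9 differences between those arrays was beyond the yardstick, against 4.41%. The median difference of the 9 was 0.11 against untreated and 0.06 against scrambled, beside 0.00 over all probe sets, with Prdm1 included.

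**Figure D3:**
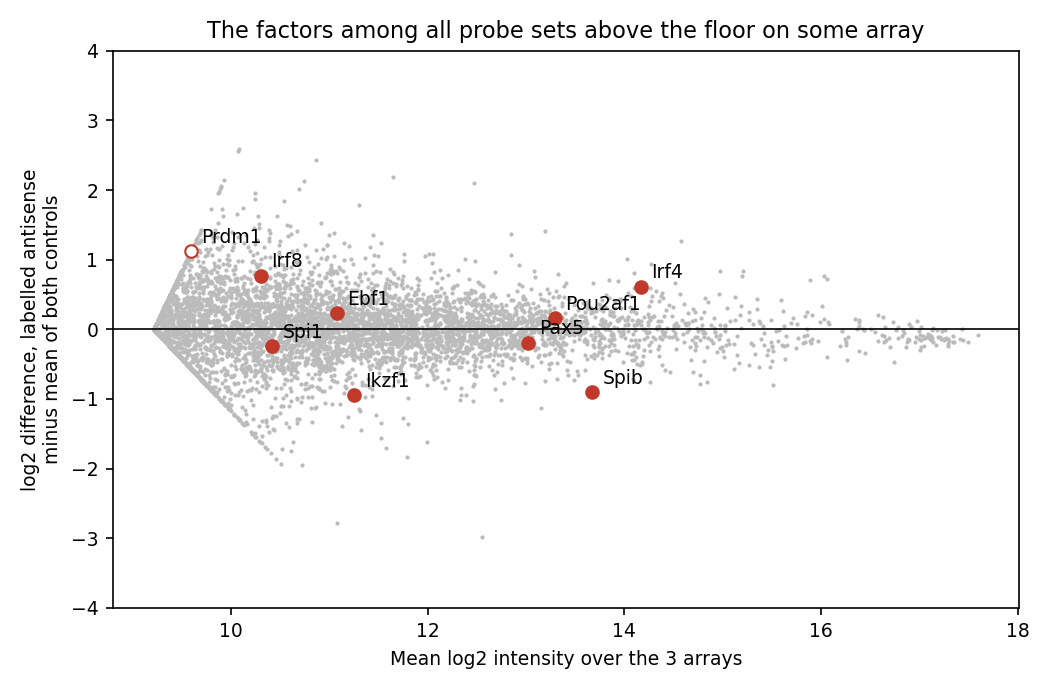
Difference of the array labelled antisense from the mean of both controls against mean log2 intensity, for the 6127 probe sets above the floor on some array (grey) and 9 of the factors (red). Spib and Irf4 lie at the edges of the cloud at their level, while Irf8, Spi1 and Prdm1 (open, with values at the floor) lie where the cloud is wide.

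A common scale cancels when the changes of a pair of genes on the same arrays are subtracted. The parting of the factors was also read that way. Each pair set a factor higher than both controls against a factor lower than both. The sign of every excess over the controls was thereby fixed, and only its size is described. The pairs given are among the widest. The change of Irf4 exceeded that of Spib by 1.47 in log2 intensity against untreated and by 1.55 against scrambled, or 2.76-fold and 2.94-fold, and between the controls this difference was -0.09. Against Ikzf1, the excess of Irf4 was 1.74 and 1.37, with 0.37 between the controls. Irf8 exceeded Spib by 1.73 and 1.61, with 0.12 between the controls. These values show unequal change and not which gene of a pair moved.

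That distinction bears on the directions, because 6 bacterial spike-in probe sets did not read alike: on the array labelled antisense their mean log2 value differed by -0.63 from untreated and -0.51 from scrambled. Scaled to these controls, the median of all probe sets rose to 0.58 and 0.46. Spib then differed by -0.20 and -0.45, the first within a yardstick of 0.43 recomputed on that scale, and Ikzf1 by -0.48 and -0.27, both within 0.77. The call beyond the yardstick against both controls thus ended for Spib and Ikzf1 under that scaling, with only the sign kept. Irf4 was higher by 1.27 and 1.10 and Pou2af1 by 0.74 and 0.73, beyond yardsticks of 0.44 and 0.41. The common shift of 0.58 and 0.46 is part of these differences and is by itself larger than either yardstick. The share of all probe sets beyond the yardstick on that scale was not counted. Pax5 and Spi1 turned to the higher side under that scaling, at 0.52 and 0.24 for Pax5 and 0.21 and 0.44 for Spi1, below the common shift.

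Genes that Prdm1 is known to repress went both ways. Apart from the 10 factors, 8 genes of this list were above the floor on some array, of which 4 stood higher than both controls and 3 lower. On each side 2 were beyond the yardstick in both comparisons. Among all such probe sets 37.2% were higher and 32% lower, and 5.27% were beyond the yardstick in both, in either direction. Id3, an inhibitor of E proteins, read 7345 on the array labelled antisense, against 10043 (scrambled) and 10272 (untreated), lower by -0.48 against untreated and -0.45 against scrambled beyond a yardstick of 0.37. Pim1, a survival kinase, went the other way, at 17982 against 7444 and 6134. So did Ccr7, at 1675 against 753 (scrambled) and 475 (untreated), the last below the floor. Its difference from scrambled, 1.153, barely passed the yardstick of 1.152. Cxcr5, a chemokine receptor of follicular B cells, read 1264, 704 and 1214, its differences of 0.06 and 0.84 within the yardstick of 1.18. Pax5, Spib and Spi1, which are also on the list, were lower than both controls, and the median without the 10 factors was -0.02 against untreated and 0.25 against scrambled.

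Genes that Bcl6 is known to repress lay more often above both controls than below. This list was chosen with earlier results of these data known, so its counts describe it and support nothing further. Of the 9 above the floor on some array apart from the 10 factors, 7 lay above both controls and 1 below both. Among all such probe sets the shares were 37.2% and 32%. Ccl3 and Ifnar1 passed the floor through the array labelled antisense alone, which fixed their side. Of the 6 above the floor on all 3 arrays, 4 were higher and 1 lower, where 37.5% and 36.4% of such probe sets were. The median difference of the 6 was 0.40 from untreated and 0.32 from scrambled. Cdkn1a, the gene of the cell-cycle inhibitor p21, read 3050.1 against 1205 (scrambled) and 961 (untreated), and it was the only one of the 9 beyond the yardstick against both controls. Bcl2, which restrains apoptosis, read 4423 against 2868 and 2770.0, and Bcl2l1, the Bcl-xL gene, read 3256 against 1972 and 1282. For each of these, the difference from scrambled lay within the yardstick. Irf4 and Prdm1 are on the list too, and Bcl6 itself read below the floor on every array.

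Genes that Pax5 is known to activate were few. Of 5 above the floor on all 3 arrays apart from the factors, 3 were lower than both controls and 1 was higher, where 36.4% and 37.5% of such probe sets were. Their median was -0.37 from untreated and -0.45 from scrambled. Cd79a, given above, differed by -0.37 and -0.50 with a yardstick of 0.33, and with Id3 it was beyond the yardstick in both comparisons. Of the 5 genes that Pax5 represses and that were above the floor on all 3 arrays, 1 was higher and 2 were lower. Ccl3, above the floor on the array labelled antisense alone, is the other higher gene of 7 in the plot of gene lists. Flt3, a receptor of early progenitors, read 7906, 7301 and 7404 in the order labelled antisense, scrambled and untreated. The suffix of this probe set marks probes shared with other transcripts. A dimmer Flt3 probe set went the other way, by -0.53 and -0.67. The integrin gene Itgal read 1735, 2274 and 1958. Jchain, the joining chain of secreted IgM, read 1592, 1691 and 1784, within the yardstick of 0.94.

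Of 5 genes that Ebf1 activates, apart from the factors, 2 were higher and 1 lower. For this count and the next, 37.2% of all probe sets above the floor on some array were higher and 32% lower. Igll1, a surrogate light chain, read 770, 623 and 624, with differences of 0.30 and 0.31 inside the yardstick of 0.57. Another Igll1 probe set differed by 0.20 from untreated and -0.13 from scrambled. Of 8 genes that Spi1 and Spib activate, 2 were higher, 2 lower, and the others went different ways or were tied at the floor. Ms4a1, which encodes CD20, read 31106 against 44803 and 44237, lower by -0.51 and -0.53 beyond a yardstick of 0.32. Btk, a kinase of B cell receptor signalling, read 3352 against 4624 and 3836. The adaptor gene Blnk, at 14841 against 14372 and 12785, and Cd79b, a receptor chain, at 1649 against 1489 and 1525, were higher, each within its yardstick. Another Blnk probe set differed by 0.20 from untreated and -0.01 from scrambled, so it was not above both. Ms4a1 was thus the one gene of this list beyond the yardstick against both controls.

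Plasma cell genes other than the factors showed no common direction. Of 6 above the floor on some array, 3 were higher and 2 lower, where 37.2% and 32% of all such probe sets were. Xbp1, the factor of the secretory response, read 6045 on the array labelled antisense, against 5943 (scrambled) and 6316 (untreated), differing by -0.06 and 0.02. It was chosen after its values were seen, because it stands beside Prdm1 in the plasma cell programme. Hspa5, the chaperone BiP of the endoplasmic reticulum, read 16644 against 23370 and 26550, lower by -0.67 against untreated and -0.49 against scrambled beyond the yardstick of 0.33. Atf6, a stress sensor of that compartment, read 1674, 1263 and 1482. Sdc1, the plasma cell surface marker CD138, and Tnfrsf17, the gene of BCMA, did not exceed the floor on any of the 3 arrays.

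Among 12 other transcription factors of B cells above the floor on some array, 4 were higher than both controls and 4 lower. Of all such probe sets, 37.2% were higher and 32% lower. Id3 was the only one of the 12 beyond the yardstick in both comparisons. Mef2c, a factor of B cell proliferation, read 5177 against 6775 and 6731, lower by -0.38 against untreated and -0.39 against scrambled within a yardstick of 0.46. Myb, a factor of progenitor cells, read 1938 against 873 (scrambled) and 1179 (untreated), within its yardstick of 1.23. Tcf12, an E protein, read 2789, 1844 and 2517. Runx1, Ets1, Klf2 and Sox4 were among 8 of the list at or below the floor.

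**Figure D4:**
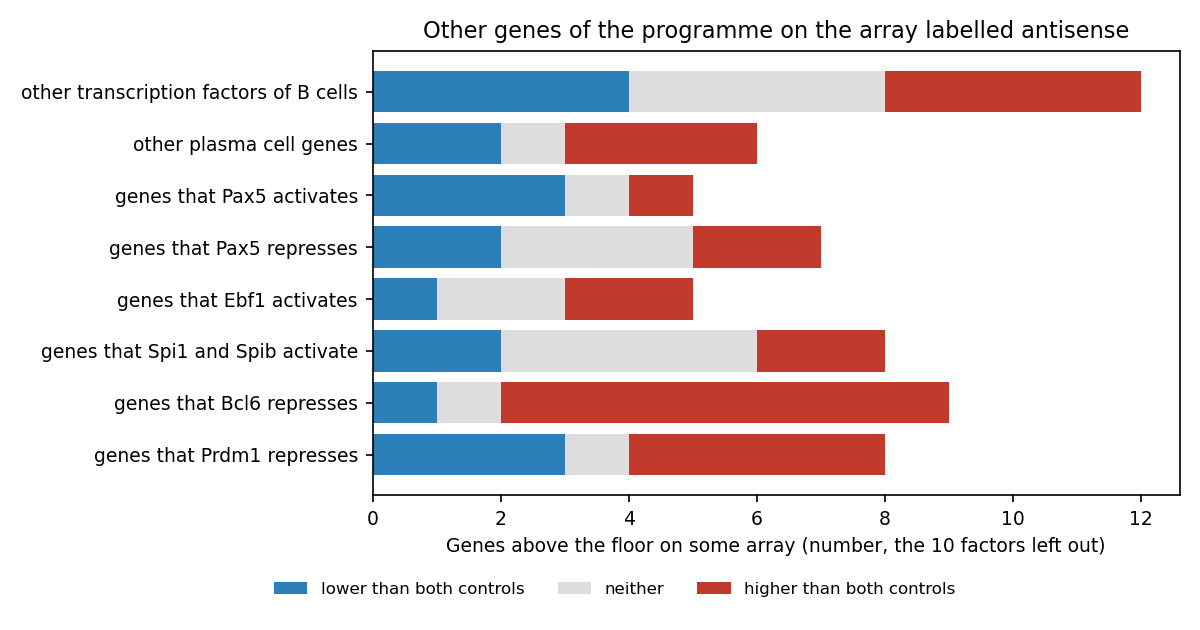
Number of genes, with the 10 factors left out, that were lower than both controls, neither, or higher than both controls on the array labelled antisense, for each list of related genes above the floor on some array. Genes that Bcl6 represses have 7 of 9 on the higher side, of which Ccl3 and Ifnar1 were above the floor on the array labelled antisense alone. Among all probe sets above the floor on some array, 37.2% were higher and 32% lower. The lists were chosen with earlier results of these data known, so the counts are a description only.

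The genes whose levels over the 3 arrays were most like those of the factors were sought for those above the floor on all arrays and at least 1.5-fold apart from both controls, with 3960 probe sets or 1 fewer as candidates. Likeness was the Euclidean distance between log2 values centred on their mean over the arrays, and 3 arrays leave many patterns alike. Nearest to Irf4 were Acaa1a, Hsd17b12 and Nus1, at distances of 0.012 to 0.030. For Spib they were Tor1b, Rnpepl1 and Sphk2, at 0.035 to 0.042, for Ikzf1 Dmap1, Acot8 and Cetn3, at 0.031 to 0.089, and for Irf8 Entr1, a probe set of Ighm and Exosc5, at 0.019 to 0.042.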

How the data were processed

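RNA of 3 LNC cultures or pools was measured on 3 arrays, 1 per group. The deposited values are linear intensities per probe set. Their mean, once 2% is cut from either end, is 1500.0 on every array, and no source used here names the authors' software. Values of 0 or less make up 24.8% to 27.9% of an array. Arrays were rescaled to a common trimmed mean over 12588 probe sets, with 66 controls left out. The floor, log2 scale and yardstick are as given above, and 6127 probe sets were above the floor on some array. A gene was represented by its brightest probe set for counts. Python 3.11.15, numpy 2.4.6 and pandas 2.3.3 were used, and the differences were checked on simulated data.

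Symbols came from the platform annotation (10276 probe sets with 1 symbol, of which 10257 matched RefSeq by gene identifier). Gene positions are those of GRCm38.p6, and promoter orientation was checked by the place of TATAAA. Some probe sets of this first array version are known to rest on faulty sequence and were not identified here. The factors and the gene lists were chosen with earlier results of these data known, so Spib, Ikzf1 and Pax5, already seen, support nothing independently. Named genes were all 10 factors and, per list, up to 4 genes above the floor on all arrays, on 1 side of both controls and with the largest difference from their mean. Some other genes, such as Ccr7, Klf1 and Hba-a1, were named to show what a count or sum rested on. Floors, scalings, filters and probe set choices were varied, 10 alternatives in all. Precision is limited by the number of arrays.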

Additional observations from a re-analysis of the deposited data

How the results depend on the processing

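Under the 10 alternatives, Irf4, Irf8, Ebf1 and Pou2af1 stayed higher than both controls and Spib and Ikzf1 kept their sign below both. Under scaling to the spike-in controls, Spib (-0.20 and -0.45) and Ikzf1 (-0.48 and -0.27) were no longer beyond the yardstick against both, while Pou2af1 became so. On that scale the median of all probe sets also rose, by more than the yardstick of Pou2af1. Prdm1 stayed higher in the 9 alternatives that gave it a value, while Pax5 and Spi1 turned with scaling to the spike-in controls alone. Prdm1 was not beyond its yardstick against both controls with the floor at the 40th percentile or at 1 or 4 robust standard deviations, which left Spib, Ikzf1 and Irf4. Spike-in scaling left 2 factors lower than both controls and put 4 at least 2-fold apart from untreated and 3 from scrambled. It moved the median of the factors to 0.74 and 0.57, beside 0.58 and 0.46 over all probe sets. The share of all probe sets 2-fold apart on that scale was not counted. A floor at the 40th percentile of values moved the median against untreated to -0.0018 and put 1 factor 2-fold apart between the controls, and a floor of 1 robust standard deviation moved that median to -0.0018. With a floor of 4 robust standard deviations, and likewise with only probe sets above the floor on the 3 arrays, 1 factor was 2-fold apart from untreated and 0 from scrambled. In the latter the median against untreated was -0.0018. The last filter leaves out Prdm1 by its construction, and the causes of the other shifts were not tested. Signal over the floor limits Prdm1, Bcl6, Spi1 and Irf8. No paired analysis was possible because each group has 1 array.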
